A study of Homo sapiens with 3 samples.

Results

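Replication-dependent histone genes supply the histone proteins that package new DNA. Messenger RNA of these genes is made mainly in S phase, and it ends in a stem-loop in place of the poly(A) tail that other messenger RNAs carry. Histones H2A, H2B, H3 and H4 form the core of the nucleosome, and histone H1 binds the linker DNA between nucleosomes. Each core histone is encoded by many near-identical gene copies, most of them clustered on chromosome 6, the H1 genes encode related but distinct subtypes, and many H2A and H2B genes stand back to back and start from a shared promoter. The genes were taken as those with the current symbols H1-1 to H1-5 or a symbol of the H2AC, H2BC, H3C or H4C series, without pseudogenes. The arrays held 64 such genes, of 22435 named genes in all, on 73 of 58201 probes. There were 5 H1 genes, 16 H2A genes, 17 H2B genes, 12 H3 genes and 14 H4 genes. A further 5 genes of these series, H2AC18, H2BC12L, H2BC18, H3C14 and H4C14, had no probe matched to them.

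The levels were measured in A549 cells, a human lung adenocarcinoma line with an epithelial character. All cells were cultured in a medium with nicotinamide, troglitazone and zinc sulfate. The study's methods name DMEM with serum and antibiotics and none of these additions. The control cells received 0.1% DMSO, a second culture received cordycepin at 60 μg/mL and another received cordyceps at 100 μg/mL, each for 48 h. Cordycepin is 3′-deoxyadenosine, an adenosine analogue that ends an RNA chain when it is built in. The labels say no more about the cordyceps material than its name and dose. Each condition was measured on 1 one-colour Agilent array, so no difference below has a replicate check and no p-value is given. Both treatments were compared with the same control array. Their values are given side by side, and since the doses are of different materials they were not compared with each other.

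Levels are given as the log2 of the array signal minus the log2 of the 75th percentile of signals on that array, here called the scaled log2 signal. A log2 ratio is the treated value minus the control value. Where several probes named a gene the brightest was used, and a gene was called at a difference of 2-fold or more. For a gene detected on only 1 of the 2 arrays the ratio is a bound, taken against the gene's own signal on the other array or, where that was higher, the lowest detected signal there among the probes that represent named genes. The technical spread was taken from genes with more than 1 probe. It covers differences between probes on the same arrays, and not those between cultures or arrays. Over 3356 genes one probe's log2 ratio had a robust SD, from the median absolute difference, of 0.25 with cordycepin and of 0.20 with cordyceps. The root-mean-square SD over the same genes, which counts probes that disagree widely, was larger, at 0.35 and 0.34. The robust SD is meant below unless the other is named. The number of detected probes was 28494 in the control, 27666 with cordycepin and 24505 with cordyceps. In one corner of the cordyceps array 11.2% of spots had an outlying local background, compared with 0 spots there on either of the other arrays. That corner held 17 histone probes of 15 genes. It held the brightest probe of 13 of these genes, namely 4 H2A, 5 H2B and 4 H4 genes, and only these genes are marked below as lying in the corner. For H2AC6 and H3C10 only the dimmer probe lies there. All 6 epithelial markers were detected on all 3 arrays. Of the 6 alveolar type II markers, 4 were detected in the control, 4 with cordycepin and 2 with cordyceps. SFTPA1 and SFTPB of that list, both surfactant proteins, were detected on no array. Of the 14 blood, fibroblast and endothelial markers, 6 were detected in the control, 5 with cordycepin and 3 with cordyceps. Their part in the results was not tested.

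The shared starting regions of H2A and H2B genes are shown first because with cordycepin the genes on either side of them had different ratios. In the promoter table of RefSeq on GRCh38.p14, 11 pairs of an H2A and an H2B gene pointed away from each other with starts less than 500 bases apart. The sequences run from the base after the H2B start to the base before the H2A start, on the H2A strand. Capitals mark 3 promoter motifs on either strand, which can overlap. The CCAAT box, spelled as named, is a binding motif of the factor NF-Y. The TATA box, a site for the general transcription machinery, is spelled TATAAA. The octamer, a motif of the factor OCT1, is spelled ATTTGCAT. The H2AC14 and H2BC14 region had the largest difference between its genes, that of H2AC11 and H2BC11 the smallest in the same direction, and that of H2AC20 and H2BC21 was the one in the opposite direction.
H2AC14/H2BC14 (chr6:27814778-27815021, minus strand): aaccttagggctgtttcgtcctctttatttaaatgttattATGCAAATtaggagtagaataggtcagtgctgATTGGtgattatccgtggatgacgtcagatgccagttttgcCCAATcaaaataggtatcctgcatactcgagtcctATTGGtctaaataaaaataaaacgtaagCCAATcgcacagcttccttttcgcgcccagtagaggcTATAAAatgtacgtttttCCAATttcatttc
H2AC11/H2BC11 (chr6:27132796-27133042, plus strand): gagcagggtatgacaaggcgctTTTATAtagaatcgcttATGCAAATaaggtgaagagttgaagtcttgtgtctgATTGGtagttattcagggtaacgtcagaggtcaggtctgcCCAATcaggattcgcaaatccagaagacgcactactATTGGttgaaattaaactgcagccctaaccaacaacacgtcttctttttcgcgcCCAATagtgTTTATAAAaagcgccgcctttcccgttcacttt
H2AC20/H2BC21 (chr1:149886683-149886917, plus strand): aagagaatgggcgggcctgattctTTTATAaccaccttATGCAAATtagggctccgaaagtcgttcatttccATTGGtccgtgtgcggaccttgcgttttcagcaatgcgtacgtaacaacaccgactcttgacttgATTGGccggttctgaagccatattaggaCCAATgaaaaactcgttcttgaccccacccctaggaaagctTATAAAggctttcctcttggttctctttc
All 3 regions held CCAAT boxes, at least 1 TATA box and 1 octamer. The CCAAT boxes were 5 in the H2AC14 region, 4 in that of H2AC11 and 3 in that of H2AC20. The regions of H2AC17 and H2AC8, where the H2A gene had the higher ratio with cordycepin, also held 3. Those of H2AC15 and H2AC25 held 0 TATA boxes and 0 octamers. A link between motifs and ratios was not tested.

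For comparison, the 250 bases before the start of a linker histone gene and of an H4 gene are shown. H1-5 had the lowest log2 ratio of any histone gene with cordyceps, and H4C5 the lowest of the H4 genes with both treatments.
H1-5 (chr6:27867589-27867838, minus strand): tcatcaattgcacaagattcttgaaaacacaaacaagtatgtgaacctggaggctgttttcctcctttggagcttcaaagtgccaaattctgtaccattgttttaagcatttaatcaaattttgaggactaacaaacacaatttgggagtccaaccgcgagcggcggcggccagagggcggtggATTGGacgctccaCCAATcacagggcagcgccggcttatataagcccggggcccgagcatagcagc
H4C5 (chr6:26204360-26204609, plus strand): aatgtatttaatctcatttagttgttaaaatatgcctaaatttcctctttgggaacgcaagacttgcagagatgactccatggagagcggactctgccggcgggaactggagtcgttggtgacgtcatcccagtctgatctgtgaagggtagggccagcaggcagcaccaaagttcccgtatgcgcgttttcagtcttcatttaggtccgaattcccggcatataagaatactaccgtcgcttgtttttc
H1-5 held 2 CCAAT boxes here, and H4C5 held none of the 3 motifs. Over windows of 250 bases before to 50 bases after the start, which could be matched for 59 of the 64 genes, a CCAAT box was present in all 5 H1, all 15 H2A, all 17 H2B and all 10 H3 promoters but in 3 of 12 H4 promoters. It was present in 34.6% of all 35116 promoter windows. The octamer was found in 11 of 15 H2A and 13 of 17 H2B promoters, in 0 of 5 H1, 0 of 12 H4 and 1 of 10 H3 promoters, and in 1.77% of all windows. The H3 window with an octamer is that of H3C4, which the table places at the start of H2AC7. A TATA box was found in 11 of 15 H2A, 12 of 17 H2B, 7 of 10 H3, 7 of 12 H4 and 3 of 5 H1 promoters, compared with 4049 of the 35116 windows of all genes. These counts describe letters in a window and not bound factors.

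Histone messenger RNA was readily detected. Of the 64 genes, 60 were detected in the control, 60 with cordycepin and 56 with cordyceps. H1-1, H2BC1, H2BC7 and H4C7 were detected on no array. The genes detected in the control but not with cordyceps were H2AC16, H2AC25, H2BC21 and H4C16, and all 4 were dim in the control, with signals between 31.5 and 61.2. The lowest signal that was detected on the cordyceps array was 34.5, compared with 18.6 in the control and 21.8 with cordycepin. All 12 H3 genes were detected on every array. The label kit is one that usually copies RNA from its poly(A) tail, and the labels do not state the primer. How RNA without such a tail entered the measurement was not tested.

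**Figure D1:**
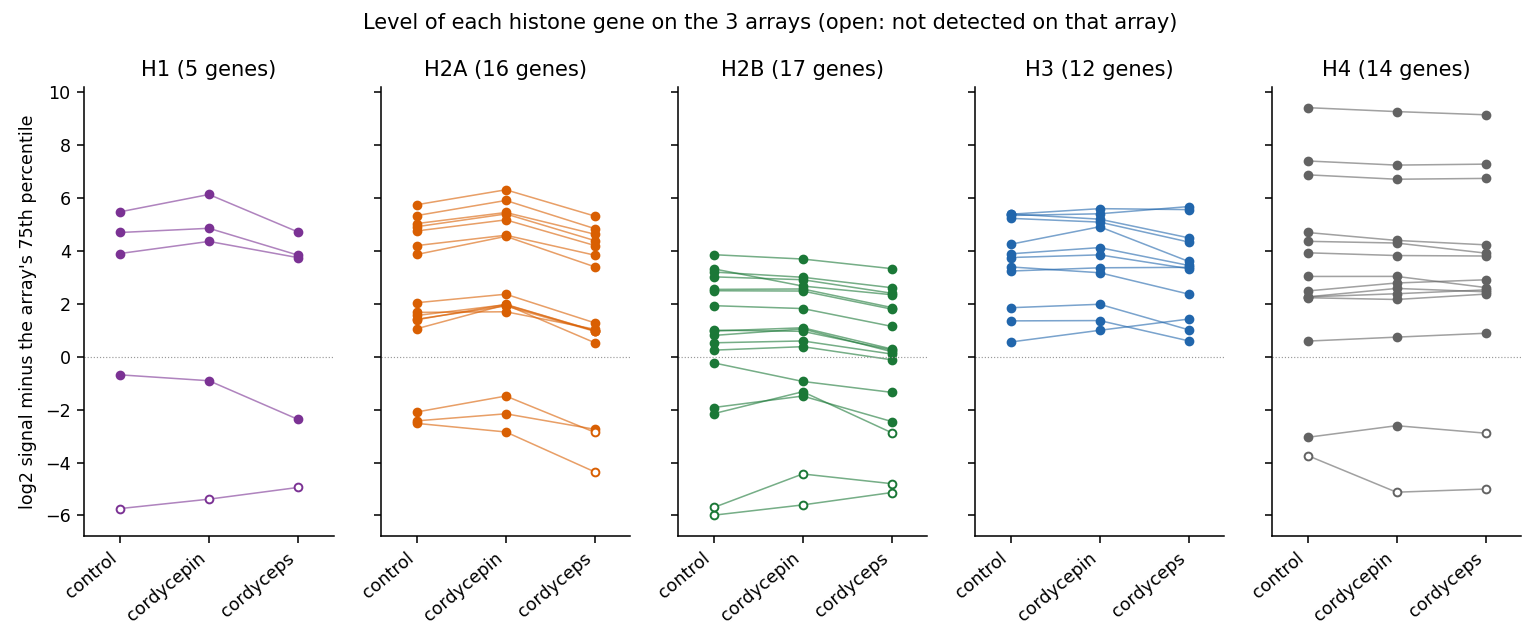
Scaled log2 signal of each of the 64 histone genes on the control, cordycepin and cordyceps arrays, 1 line per gene in 1 panel per class; open points were not detected on that array. Within H2A most lines are highest on the cordycepin array and lowest on the cordyceps array, while H4 lines are closer to level; heights of different genes come from different probes and are not comparable.

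With cordycepin, H2A genes were high relative to all genes of the array, while H2B and H4 genes were centred near the median of all genes. No histone gene reached a 2-fold difference, compared with 5.9% of the 15917 named genes higher and 3.55% lower. At 1.5-fold, 6 of the 60 detected histone genes were higher and 2 lower, that is H1-2, H2AC7, H2AC19, H2AC25, H2BC21 and H3C15 against H2BC6 and H2BC12, compared with 13.2% and 11.7% of all named genes. The median log2 ratio of all named genes was -0.04 with quartiles of -0.33 and 0.28. The median over all 60 histone genes was 0.13, or 0.17 above that of all genes. Of them 66.7% had a ratio above 0, compared with 45.1% of all named genes, but this share was 38.3% when arrays were scaled by their median and 41.7% with no scaling. Class medians are therefore given below relative to the median of all genes, which such a shift does not move.

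H2A was the class that stood furthest above all genes with cordycepin. Its median log2 ratio was 0.45, a 1.37-fold difference and 0.49 above the median of all genes. Of the 16 H2A genes, 15 lay above that median, and 14 had a ratio above the technical SD of one probe, or 12 by the root-mean-square SD. The upper quartile of all named genes, 0.28, was also above the first of these SDs, 0.25. The 2 counts against an SD, unlike the position relative to all genes, move with the scaling. Scaling arrays by their median moved the median of all genes by -0.26 and left H2AC4 at 0.06, so fewer genes then passed. H2AC19, on chromosome 1, was the highest, with a scaled log2 signal of 1.06 in the control, 1.97 with cordycepin and 0.53 with cordyceps. Its cordycepin array was the highest of the 3, 1.87-fold above the control. H2AC4 went from 2.04 in the control to 2.36 with cordycepin. H2AC1, whose probe lies in the corner, went from -2.42 to -2.16. Both of these lay nearer to their control than H2AC19 did. H2AC16 was the only H2A gene below the median of all genes, with -2.52 in the control and -2.84 with cordycepin at signals of 45.3 and 31.2. It was among the dimmest histone genes that were detected, and its difference shrank from -0.32 to -0.02 with the normexp background correction.

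The H2B genes showed no such offset. Their median log2 ratio of -0.01 was 0.03 above that of all genes, with 9 of 15 above it and 6 below. The ends of the range were wide. H2BC21, on chromosome 1, had a scaled log2 signal of -2.15 in the control and -1.32 with cordycepin, a 1.78-fold difference. H2BC6 had -0.23 in the control, -0.93 with cordycepin and -1.35 with cordyceps. H2BC6 was thus below its control on both treated arrays, by 1.63-fold with cordycepin, and its probe lies in the corner. H2BC12 was 1.57-fold lower by its brightest probe, while its second probe gave a log2 ratio of -0.02. H2BC15, in the corner, had 0.25 in the control and 0.38 with cordycepin, a difference that was -0.13 in place of 0.13 when arrays were scaled by their median.

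The pairs that share a starting region repeated the contrast between H2A and H2B. With cordycepin, both genes were detected on both arrays in 9 of the 11 pairs. The H2A gene had the higher log2 ratio in 8 of the 9 pairs and the lower in 1. The median difference was 0.37 and ranged from -0.44 to 0.58. In 5 of 9 pairs the H2A gene was higher by more than the SD of a difference between 2 probes, 0.35, and in 1 pair it was lower by more than that. By the root-mean-square SD, which gives 0.49 for such a difference, it was higher in 3 pairs and lower in 0. H2AC14 had a log2 ratio of 0.56 and its partner H2BC14 of -0.01. H2AC17 had 0.42 and H2BC17 -0.11, and H2AC8 had 0.58 and H2BC8 0.07. In each of these pairs the H2A gene had the higher ratio by more than the SD of such a difference. The pair of H2AC20 at 0.39 and H2BC21 at 0.83 went the other way. The H2A gene was above its partner in 8 of the 9 pairs under each alternative that kept all 9. Most of these could not alter this count, since a shift of a whole array cancels within a pair. The median difference moved only with quantile normalization, the median over probes and the normexp correction, to 0.39, 0.34 and 0.27. In the 5 pairs with no probe in the corner the H2A gene was higher in 5, with a median difference of 0.51, and 4 of the 5 exceeded 0.35 while 3 exceeded 0.49. The outlying background of that corner was on the cordyceps array only, so this is no check on the cordycepin ratios. The pairs left out include the 1 that went the other way and that of H2AC11 and H2BC11, with a difference of 0.16. The H2A and H2B genes of all these pairs are part of the classes described above, so the pairs are the same measurements arranged by promoter and not further samples. Since the copies of a class are near-identical, 1 transcript can bind the probes of several genes, and the pairs may not be independent of each other.

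**Figure D2:**
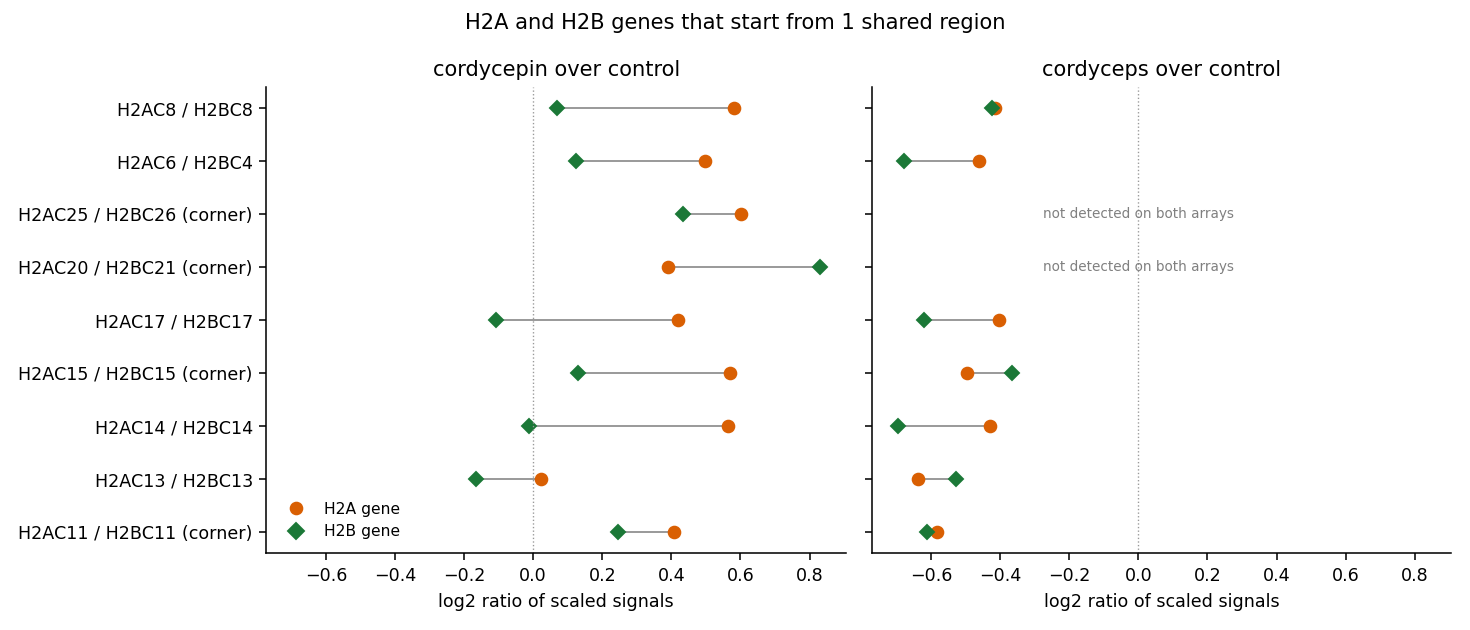
Log2 ratio over the control of the H2A gene (circle) and the H2B gene (diamond) of each pair that shares a starting region, for cordycepin on the left and cordyceps on the right; "corner" marks pairs with a probe in the corner of the cordyceps array. With cordycepin the H2A gene lies to the right of its partner in 8 of 9 pairs, and with cordyceps both genes of all 7 detected pairs lie below 0, 5 of them with the H2A gene to the right.

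H1 and H3 were between H2A and H4 with cordycepin. The median of the 4 detected H1 genes was 0.35 above that of all genes, with 3 of 4 above it. H1-2 had a scaled log2 signal of 5.48 in the control and 6.13 with cordycepin, H1-4 had 3.90 and 4.36, and H1-5 had -0.68 and -0.91. H1-2 and H1-4 were thus higher, by 1.58-fold and 1.37-fold, and H1-5 was 1.17-fold lower, a difference within the technical SD. With arrays scaled by their median the log2 ratios of H1-2, H1-4 and H1-5 were 0.39, 0.19 and -0.49. H1-4 then lay within that SD and H1-5 beyond it. The median of the 12 H3 genes was 0.16 above that of all genes, with 9 of 12 above it. H3C15, on chromosome 1, was the highest with 4.25 in the control and 4.91 with cordycepin, and H3C12 the lowest with 3.39 and 3.18. H3C15 was 1.58-fold higher, while the H3C12 difference was within the technical SD, though not with arrays scaled by their median, at -0.48.

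The H4 genes were centred on the median of all genes, with a class median of -0.02 relative to it. Of 13 genes, 6 lay above that median and 7 below. H4C16, the single gene on chromosome 12, was the highest with -3.05 in the control and -2.61 with cordycepin, and H4C5 the lowest with 4.70 and 4.40. The H4C16 signals of 31.5 and 36.8 were close to the lowest that were detected. The H4 median relative to all genes was 0.16 when the probes in the corner were left out, so its side of 0 is not settled. H4C12, a gene with a pair of detected probes, had a log2 ratio of -0.10 by the brighter probe and 0.40 by the other.

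By the older cluster names, the 7 detected genes of the HIST2 cluster on chromosome 1 had a median log2 ratio with cordycepin of 0.42 and all 7 were above the median of all genes, while the 50 genes of the HIST1 cluster on chromosome 6 had a median of 0.07 with 32 above and 18 below. The 2 detected genes of the HIST3 cluster, H2AC25 and H2BC26, had 0.60 and 0.43. The HIST2 cluster included genes of several classes, namely H2AC19, H2AC20, H2AC21, H2BC21, H3C13, H3C15 and H4C15. With cordyceps the medians were -0.47 for HIST1 and -0.53 for HIST2.

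**Figure D3:**
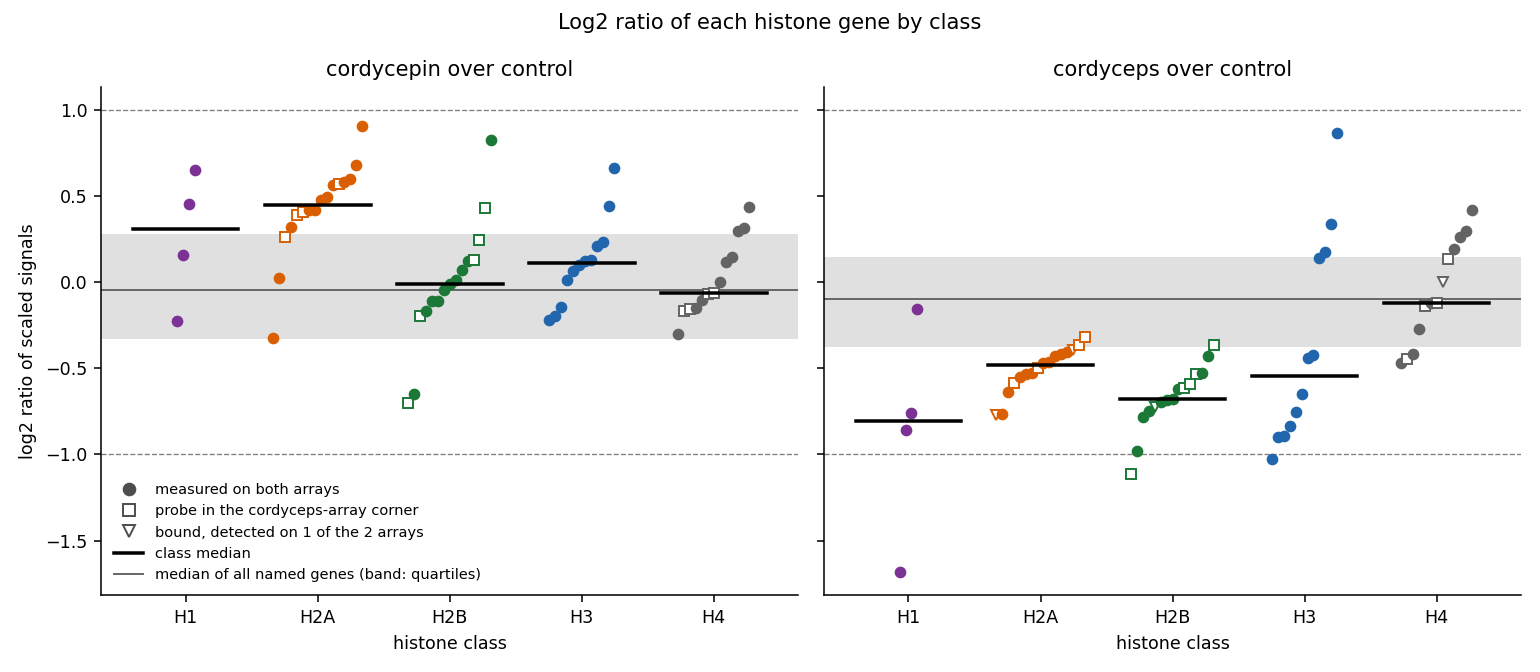
Log2 ratio over the control of each detected histone gene by class, for cordycepin on the left and cordyceps on the right; black bars are class medians, the grey line and band are the median and quartiles of all named genes, and dashed lines mark 2-fold. With cordycepin the H2A median is 0.45 and the H2B median -0.01 (0.19 and -0.28 with arrays scaled by their median); with cordyceps all H1, H2A and H2B points lie below the grey line, while H3 splits into 8 genes below and 4 above it and H4 lies on both sides.

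With cordyceps, most H1, H2A, H2B and H3 genes had lower levels than in the control, and the H4 genes lay on both sides of the median of all genes. The median log2 ratio over 60 genes was -0.48, or -0.39 relative to the median of all 15602 named genes, which was -0.10. At 2-fold, 3 histone genes were lower and 0 higher, compared with 3.15% and 4.17% of all named genes. At 1.5-fold, 23 of 60 were lower and 1 higher, compared with 12.5% and 8.3%. By class, 3 of 4 H1, 3 of 16 H2A, 11 of 15 H2B, 6 of 12 H3 and 0 of 13 H4 genes were lower by that measure. With the corner left out, 14 of 47 genes were lower at 1.5-fold and 1 at 2-fold, compared with 8.38% and 2.2% of all genes. At 3-fold, 1 gene was lower with all probes kept, compared with 0.545% of all named genes. In these bulk samples fewer cells in S phase and less histone RNA per cell cannot be told apart.

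The 3 genes that were lower by 2-fold or more were H1-5, H2BC6 and H3C12. H1-5 had a signal of 161.9 in the control, 119.5 with cordycepin and 50.4 with cordyceps. Its cordyceps array was the lowest, at 3.21-fold below the control, and remained over 2-fold lower under each alternative processing, with log2 ratios between -1.69 and -1.05. The lowest signal detected on that array was 34.5, so the size of this fold is limited by a signal near it. H2BC6 was 2.17-fold lower with a signal of 102.3 against 221.4, and its probe lies in the corner. H3C12 was 2.04-fold lower, with 1344 against 2736. Both are close to the 2-fold limit and were under it with arrays scaled by their median.

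All 4 detected H1 genes were below the median of all genes, and the class median was 0.71 below it. H1-2 had a scaled log2 signal of 4.72, compared with 5.48 in the control. H1-4 had 3.75 against 3.90, and its log2 ratio of -0.16 became 0.11 when arrays were scaled by their median. H1-3 was 1.81-fold lower. H1-4 was thus the linker histone gene that stayed nearest to its control.

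All 16 H2A and all 15 H2B genes lay below the median of all genes with cordyceps. The 14 H2A genes that were measured on both arrays had log2 ratios from -0.76 to -0.32, and the class median, with the other 2 genes at their bounds, was 0.39 below all genes. H2AC4 had 1.28 against 2.04 in the control, and H2AC1, in the corner, -2.74 against -2.42. H2AC16 was not detected and was at least 1.32-fold lower, and H2AC25 was likewise at least 1.71-fold lower. The H2B genes had a median 0.58 below all genes, with 1 gene at its bound, and the 14 measured genes ranged from -1.11 to -0.37. H2BC12, the second lowest, was 1.97-fold lower by its brightest probe, and its other probe gave -0.69. H2BC15, in the corner, stayed nearest to its control with -0.12 against 0.25. H2BC21 was not detected by its brightest probe and at least 1.65-fold lower, and its other probe was detected on no array. In the pairs with a shared starting region, both genes were detected in 7. The H2A gene was above its partner in 5 of 7 pairs with a median difference of 0.03, and 0 of the differences exceeded 0.29, the SD of a difference between 2 probes with cordyceps.

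The H3 genes lay on both sides of the median of all genes with cordyceps. Below it, 8 genes had log2 ratios from -1.03 for H3C12 to -0.42 for H3C4. Above it, H3C8, H3C13, H3C3 and H3C11 had 0.14, 0.17, 0.34 and 0.87. The ratios of H3C8 and H3C13 were within the technical SD of 0.20. H3C11 was the highest, with a scaled log2 signal of 0.56 in the control, 1.00 with cordycepin and 1.42 with cordyceps. It was 1.82-fold higher with cordyceps, the only histone gene past 1.5-fold in that direction, and its log2 ratio was 1.14 with arrays scaled by their median. H3C15, by contrast, had 3.60 with cordyceps against 4.25. None of the brightest H3 probes, from which these values come, lies in the corner.

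The H4 median was -0.02 relative to all genes. Of the 12 genes measured on both arrays, 5 were above the median of all genes and 7 below. H4C11 was the highest with 2.91 against 2.49 in the control, and H4C5 the lowest with 4.23 against 4.70. H4C5 was the lowest H4 gene with either treatment, and its probe lies outside the corner. H4C16 was not detected with cordyceps, and no fold is given for it. H4C12 again differed between probes, with -0.12 by the brighter and 0.59 by the other.

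**Figure D4:**
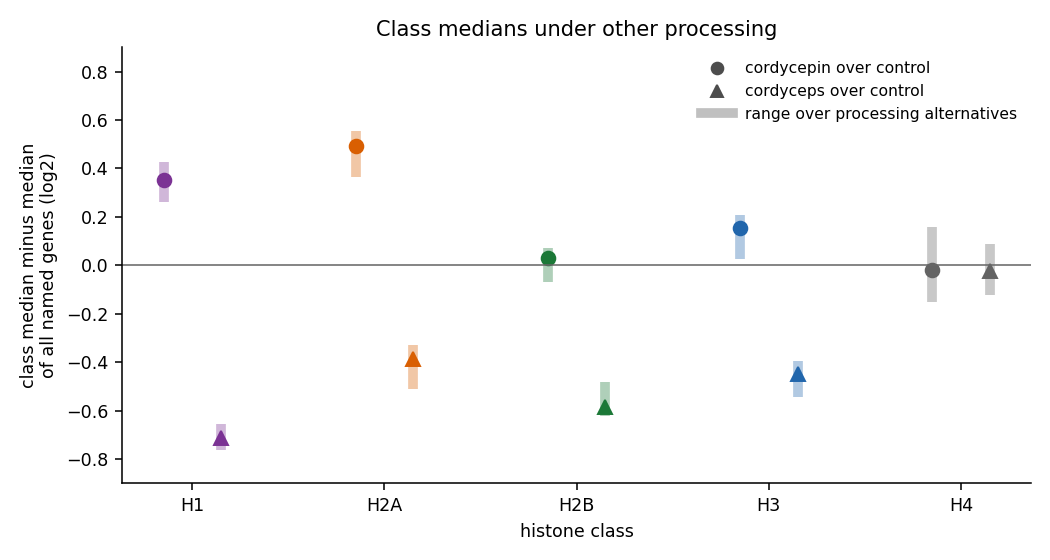
Median log2 ratio of each class minus the median of all named genes, for cordycepin (circles) and cordyceps (triangles), with bars for the range over 11 processing alternatives. The H2A bar for cordycepin runs from 0.36 to 0.55 and those of H1, H2A, H2B and H3 for cordyceps stay below 0, while the H2B bar for cordycepin and both H4 bars cross 0.

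Genes for 3′ end formation and transcription of histones passed the 2-fold limit about as often as all genes did. Of 19 genes 18 were detected, and 1 was called with each treatment, compared with 5.9% of all named genes higher with cordycepin and 3.15% lower with cordyceps. With cordycepin their median was 0.04 below that of all genes, and CCNE2, a cyclin E that drives entry into S phase, was the 1 gene that was 2-fold higher, at 2.16-fold. Its scaled log2 signal was -2.19 in the control and -1.07 with cordycepin. It was no longer called when arrays were scaled by their median, left unscaled or corrected by normexp. The lowest was SRRT, which acts with the cap-binding complex, at -0.53. SLBP, the protein that binds the histone stem-loop, had a log2 ratio of -0.07 with cordycepin and -0.18 with cordyceps. LSM11, part of the U7 particle that cuts histone transcripts, was 2.01-fold lower with cordyceps, at the limit, and the zinc finger protein ZNF473 of the same machinery was the highest at 0.66. Of the 5 genes for decay of histone messenger RNA, 4 had a probe and 0 were called with either treatment. Among all named genes 5.9% were higher and 3.55% lower with cordycepin, and 4.17% and 3.15% with cordyceps. A count of 0 among 4 genes is therefore not read as a result. ERI1, an exonuclease that acts on the stem-loop, was the highest with cordycepin at 0.71.

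The S phase genes were described in the same way, and a link between them and the histone levels was not tested. With cordyceps, 8 of the 14 S phase genes that could be used were lower by 2-fold, compared with 3.15% of all named genes. All 14 had ratios below the median of all genes, which was -0.10, and their own median was -1.22. PCNA, the sliding clamp of the replication fork, had a scaled log2 signal of 5.42 in the control, 5.58 with cordycepin and 4.23 with cordyceps. E2F1, the transcription factor of the S phase programme, was at least 5.86-fold lower, and RRM2, a subunit of ribonucleotide reductase, at least 4.54-fold lower. The others were MCM3, MCM4, MCM6, TYMS and GINS2, and the probes of E2F1, TYMS and GINS2 lie in the corner. Relative to all genes the S phase median was -1.13, against -0.71 for H1, the lowest of the histone classes. With arrays scaled by their median, 6 of the 14 were called and all 14 stayed below the median of all genes. With cordycepin, 0 of 15 S phase genes were called, compared with 5.9% of all named genes higher and 3.55% lower. Of the 15, 12 lay above the median of all genes, with a list median 0.30 above it. CDC6, which loads the replicative helicase, was the highest at 0.82 as a bound, and MCM5 the lowest at -0.41.

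Histone chaperones and replication-independent histones were next compared with the control. Of 21 chaperone genes 0 were called with cordycepin, compared with 5.9% of all named genes higher and 3.55% lower. With cordyceps 5 were lower, namely CHAF1A and CHAF1B of the CAF-1 complex, ASF1B, NASP and HJURP, compared with 3.15% of all named genes. With arrays scaled by their median 2 of these 5 were called, ASF1B and CHAF1A. CHAF1A was the lowest at 2.64-fold, with 2.38 in the control and 0.98 with cordyceps. The probes of CHAF1B and NASP lie in the corner. Of 11 replication-independent histones, 10 had a probe, and 0 were called with cordycepin, against the same 5.9% and 3.55% of all named genes. With cordyceps 2 were lower, compared with 3.15% of all named genes. These were H2AX, the variant that is phosphorylated at DNA breaks, at 2.50-fold and H2AZ1 at 2.20-fold, both with probes in the corner. With the corner left out 0 of the 7 that remained were called with cordyceps, compared with 2.2% of all named genes lower. With cordycepin the highest was H2AJ at 0.56 and the lowest MACROH2A2 at -0.21.

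Where a histone gene had more than 1 detected probe, these gave a measure of how far a single value can be read. In 8 such genes the 2 probes differed by 0.07 to 0.63 on the log2 scale with cordycepin, with a median of 0.30, and by 0.12 to 0.71 with cordyceps, with a median of 0.27. H2AC6 was the closest with cordycepin, at 0.50 and 0.43, and H2BC12 the furthest apart. Differences of single genes below about this size are not read as changes here. The probe sequences were not used here, so binding of several copies to 1 probe could not be checked.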

How the data were processed

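Total RNA from 3 A549 cultures was labelled with Cy3 and hybridized to 1 Agilent array each. The authors deposited the scanner output, with intensity values from which Feature Extraction 11.5.1.1 had removed background and spatial trend array by array, unscaled between arrays. The deposited value table holds the same intensity values and was used as an alternative. The study's methods name both Cy3 and Cy5 and a later normalization in GeneSpring, while the files hold 1 colour. Flagged spots were left out, spots of a probe were averaged, and log2 signals were reduced by the 75th percentile of their array. Detection required the scanner's well-above-background flag on 50% or more of a probe's spots. Of 58191 probes, 31097 were named through RefSeq accessions, giving 22435 genes; the array design refers to hg19, so no gene position was taken from it. No spot was saturated. Probes printed 10 times had a median SD between spots of 0.05 to 0.07 on the log2 scale, which covers printing and scanning only. The number of arrays, 1 per condition, limits the precision, and no statistical test was run.

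Histone genes, companion lists and alternatives were chosen with earlier results of these data known. Levels are given for histone genes called at 2-fold and for the highest and lowest measured gene of each class, and no histone gene had detected probes over 1 apart on the log2 scale. Companion genes are named where called or at an end of their list; other genes named were chosen after their values were seen. One gene of a companion list is not reported here. The corner is Row over 5/8 and Col over 1/2 of the highest values. The calling script was tested on simulated data. Python 3.11.15 with pandas 2.3.3 was used, and limma 3.58.1 in R 4.3.3 for the normexp correction with an offset of 50. The alternatives were 13 in number: 4 scalings, a background correction, 2 detection rules, flagged spots kept, the value table, the median over probes, 2 fold limits and the corner left out.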

Additional observations from a re-analysis of the deposited data

How the results depend on the processing

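Over 13 alternatives no called value changed direction. With cordycepin, where 0 histone genes were called in either direction, the 1.5-fold limit gave 6 higher and 2 lower and no detection filter 1 higher and 1 lower. With cordyceps, where 0 were higher and 3 lower, the 1.5-fold limit gave 1 higher and 23 lower, scaling by the median 1 higher and 1 lower, the 3-fold limit 1 lower, leaving out the corner 1 lower, the normexp background correction 1 lower and no detection filter 5 lower. The median of all histone genes relative to all genes stayed between 0.05 and 0.19 with cordycepin and between -0.48 and -0.33 with cordyceps. Scaling by the median moved the median of all named genes by -0.26 with cordycepin and by 0.22 with cordyceps, and no scaling moved it by -0.21 with cordycepin. Under median scaling the class median log2 ratio of H3 with cordycepin was -0.15 in place of 0.11, and that of H4 with cordyceps was 0.15 in place of -0.12. The cause of these moves, apart from the change of limit, filter or probes itself, was not tested. Signals near the lowest detected limit the ratios of H2AC1, H2AC16, H2AC25, H2BC21, H2BC26 and H4C16, and that of H1-5 with cordyceps. No paired analysis was possible because each condition has 1 array.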
